A study of Mus musculus with 24 samples.

Results

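Messenger RNAs of neutrophil granule proteins were followed in macrophages grown from mouse bone marrow. The set was chosen by symbol and holds 10 of the 23337 gene symbols counted: S100a8, S100a9, Ngp, Camp, Ltf, Lcn2, Mmp8, Mmp9, Elane and Mpo. Each was read in 12 libraries of total RNA and 12 libraries of ribosome-protected fragments (footprints, the stretches of mRNA covered by ribosomes), 1 of each from every culture. A gene absent from a footprint table was taken as 0.

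Mice of the C57BL/6J strain, littermates or matched for age at 6 to 12 weeks, were either wild type (WT) or carried Apobec1 -/- alleles (KO). Apobec1 encodes a cytidine deaminase that edits RNA. Marrow of both genotypes was grown for 7 days in 20 ng/mL M-CSF, with 40 ng/mL in the medium replaced every 3 days. The labels number 3 batches. Batch 1 comprised KO1 with WT1, WT2 and WT3, batch 2 comprised WT4 with KO2, KO3 and KO4, while KO5, KO6, WT5 and WT6 made up batch 3. What was done together in a batch is not said. Whether every culture had its own donor mouse is not said either, and p-values then reflect only the spread among cultures, which may be technical.

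Neutrophils load their granules in sequence while they mature in the marrow. Primary (azurophil) granules are filled first, at the promyelocyte stage, secondary (specific) granules at the myelocyte stage, and tertiary (gelatinase) granules later, so a granule gene marks the stage of a precursor more than the mature cell. Mpo (myeloperoxidase) and Elane (neutrophil elastase) belong to primary granules. Ngp (neutrophilic granule protein), Camp (the precursor of the cathelicidin peptide), Ltf (lactoferrin, which binds iron), Lcn2 (lipocalin 2, which binds bacterial siderophores) and Mmp8 (neutrophil collagenase) belong to secondary granules, and Mmp9 (gelatinase B) to tertiary granules. S100a8 and S100a9 are not granule proteins: they pair as calprotectin in the cytosol of neutrophils and monocytes, and are treated here as a cytosolic class. Macrophages and monocytes are known to make Mmp9 and, when activated, Lcn2.

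Gene counts ran from 5077478 to 12059361 a library in total RNA and from 29561 (WT6) to 3714912 (WT4) in footprints. The limit that a count of 0 allows, 3 counts, equals 0.249 to 0.591 CPM in total RNA and 0.808 to 101.5 CPM in footprints, where CPM is a count scaled to a common library size after TMM normalization; these limits cover counting error only. As a check of the labels, footprints of Apobec1 were at 0 to 24.4 CPM in the 6 KO libraries and at 58.9 to 103.6 CPM in the 6 WT libraries, while its total RNA was at 604.5 to 1274 CPM in KO and 313.6 to 473.5 CPM in WT. All 10 counted macrophage markers were detected in every batch, with a summed level of 15436 to 49323 CPM in total RNA. In batch 3, the 4 Y-linked genes summed to 1 to 2 counts a library against 973 to 3572 in the other batches, so the sex of the mice moves with batch 3 and cannot be told apart from it.

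The start regions of 4 members are shown. Ngp and Ltf follow each other most closely over the cultures. Mmp8 and Mpo are a secondary and a primary granule gene for which WT4 lay far above the other cultures of its batch. In total RNA, WT4 lay above them for every member, by little for Ngp, Ltf and Camp. Each sequence is the 250 bases before the RefSeq gene start on GRCm38.p6, 5′ to 3′ on the gene's strand, with matches to 2 motifs in capitals: TTNNGNAA, a C/EBP core, and GGAAGT, a PU.1 core, both searched on both strands.

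Ngp (chr9:110419558-110419807, plus strand): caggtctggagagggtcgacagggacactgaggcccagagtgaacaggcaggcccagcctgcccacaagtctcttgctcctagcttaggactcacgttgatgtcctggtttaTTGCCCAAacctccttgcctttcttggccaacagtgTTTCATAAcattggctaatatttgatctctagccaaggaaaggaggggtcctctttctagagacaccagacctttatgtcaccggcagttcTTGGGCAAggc

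Ltf (chr9:111019042-111019291, plus strand): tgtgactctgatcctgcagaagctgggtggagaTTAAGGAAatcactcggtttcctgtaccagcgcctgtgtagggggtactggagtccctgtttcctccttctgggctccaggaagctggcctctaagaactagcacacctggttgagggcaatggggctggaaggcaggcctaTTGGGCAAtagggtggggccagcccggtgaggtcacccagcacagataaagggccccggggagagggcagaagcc

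Mmp8 (chr9:7558179-7558428, plus strand): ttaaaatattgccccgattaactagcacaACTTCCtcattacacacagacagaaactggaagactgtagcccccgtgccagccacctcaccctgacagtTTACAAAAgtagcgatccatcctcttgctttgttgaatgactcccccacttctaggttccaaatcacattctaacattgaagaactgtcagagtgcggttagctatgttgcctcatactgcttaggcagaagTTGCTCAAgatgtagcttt

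Mpo (chr11:87793534-87793783, plus strand): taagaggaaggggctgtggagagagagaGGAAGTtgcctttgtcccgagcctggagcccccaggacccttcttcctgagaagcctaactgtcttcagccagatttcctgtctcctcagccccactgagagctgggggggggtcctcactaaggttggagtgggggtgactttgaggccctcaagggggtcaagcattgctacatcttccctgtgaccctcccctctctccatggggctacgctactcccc

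The Ngp window holds 3 matches to TTNNGNAA, the Ltf window 2 and the Mmp8 window 2, and the Mpo window holds none. The Mmp8 and Mpo windows each hold 1 match to GGAAGT. Over the 9 members with a RefSeq window, 6 hold TTNNGNAA and 5 hold GGAAGT, against 36.8% and 19.7% of 32851 windows of the same length, and no matches of the different motifs overlap. The Camp window, not shown, holds neither motif, though Camp also followed Ltf closely (Pearson r = 0.980). A match is a description of these letters only.

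Primary granule genes were almost absent from total RNA in batch 1 and were highest in batch 3. Mpo stood at 0, 0.165, 0 and 0 CPM in KO1, WT1, WT2 and WT3, at 0.692, 1.04, 1.01 and 5.95 CPM in KO2, KO3, KO4 and WT4, and at 15.5, 20.4, 11.5 and 20.1 CPM in KO5, KO6, WT5 and WT6. The 3 batches did not overlap for Mpo, and WT4 lay above the 3 KO cultures of its batch. Elane had no count in the 4 libraries of batch 1 or in KO2, KO3 and KO4, 1.65 CPM (10 counts) in WT4, and 7.76, 7.42, 5.90 and 9.23 CPM in KO5, KO6, WT5 and WT6. Summed over libraries, Mpo had 2 counts in batch 1 and 52 in batch 2, 36 of them in WT4. The ratio of their shares of all gene counts was 42.0 (95% interval 11.0 to 356), and without WT4 it was 17.6 (4.13 to 157); both intervals cover counting error only. Elane in batch 3 was at least 107-fold higher than batch 1, set at the limit of 3 counts over its libraries.

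Secondary granule genes followed the same order of batches for Ngp, Camp and Ltf. Ngp had no count in batch 1, 5.39, 5.39, 9.30 and 9.91 CPM in KO2, KO3, KO4 and WT4, and 27.8, 40.0, 24.2 and 46.0 CPM in KO5, KO6, WT5 and WT6. Against the limit of 3 counts over batch 1, Ngp was at least 94.7-fold higher in batch 2 and at least 488-fold higher in batch 3. Ltf rose from 0.132, 0.248, 0.119 and 0.0850 CPM in KO1, WT1, WT2 and WT3 to 10.4, 12.0, 18.4 and 19.6 CPM in KO2, KO3, KO4 and WT4 and to 68.1, 58.0, 62.8 and 74.3 CPM in KO5, KO6, WT5 and WT6. The spread of Ltf within a batch was small beside the steps between batches, and WT4 was level with KO4. Camp was detected with 1 count in batch 1 (WT1), at 0.968, 2.08, 1.82 and 2.15 CPM in KO2, KO3, KO4 and WT4, and at 11.0, 5.83, 8.93 and 9.83 CPM in KO5, KO6, WT5 and WT6.

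Lcn2 and Mmp8 did not follow that order. Lcn2 stood at 1.06, 0, 0.596 and 0.255 CPM in KO1, WT1, WT2 and WT3, at 3.18, 12.3, 5.26 and 48.7 CPM in KO2, KO3, KO4 and WT4, and at 10.2, 14.1, 8.02 and 18.2 CPM in KO5, KO6, WT5 and WT6. Mmp8 was already present in batch 1, at 5.54, 2.97, 4.41 and 4.93 CPM in KO1, WT1, WT2 and WT3. It stood at 13.8, 28.3, 11.1 and 226.8 CPM in KO2, KO3, KO4 and WT4 and at 26.4, 17.9, 28.9 and 26.1 CPM in KO5, KO6, WT5 and WT6. The ranges of batches 2 and 3 overlapped for both genes, and WT4 was the highest of the 12 libraries for both.

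Mmp9, the tertiary granule gene, ran the other way. It stood at 7.13, 6.85, 8.82 and 10.1 CPM in KO1, WT1, WT2 and WT3, at 5.95, 4.87, 4.65 and 23.6 CPM in KO2, KO3, KO4 and WT4, and at 1.69, 1.19, 1.82 and 3.42 CPM in KO5, KO6, WT5 and WT6. The 4 libraries of batch 3 lay below the other 8, and WT4 above the other 11.

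The cytosolic pair had the steps of Ltf. S100a8 stood at 0.396, 0.990, 1.19 and 0.170 CPM in KO1, WT1, WT2 and WT3, at 11.2, 15.3, 23.1 and 64.1 CPM in KO2, KO3, KO4 and WT4, and at 132, 101, 146 and 137 CPM in KO5, KO6, WT5 and WT6. S100a9 stood at 0.528, 0.0825, 1.55 and 0.255 CPM in KO1, WT1, WT2 and WT3, at 16.0, 26.4, 40.9 and 65.6 CPM in KO2, KO3, KO4 and WT4, and at 207, 156, 218 and 220 CPM in KO5, KO6, WT5 and WT6. The 3 batches did not overlap for either gene, and both genotypes lay on each side of every step.

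**Figure D1:**
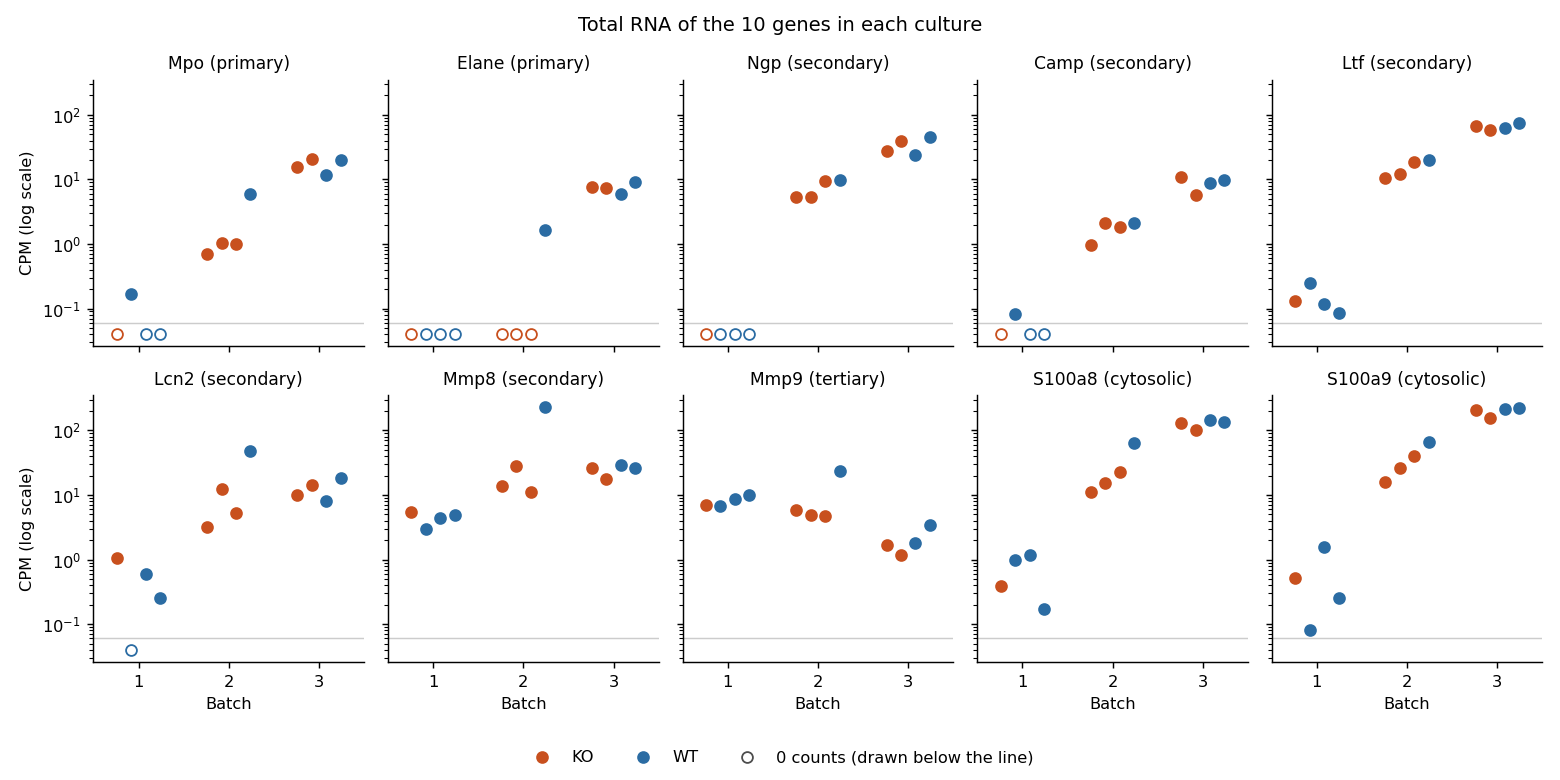
Total RNA of each member in CPM on a log axis, by batch, with 1 point per culture coloured by genotype; open points below the grey line had 0 counts. S100a8, S100a9, Mpo, Ngp, Camp and Ltf step up from batch 1 to batch 3, Mmp9 is lowest in batch 3, and WT4 stands at 226.8 CPM for Mmp8.

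With genotype in the model, 8 of the 10 members passed edgeR's quasi-likelihood test as higher in total RNA of batch 2 than of batch 1, where 12.5% of the 11323 genes tested were called higher. The exceptions were Elane (Benjamini-Hochberg adjusted p = 0.0795) and Mmp9 (adjusted p = 0.171). Of the 10 members, 7 had no batch 1 library above the level the low-count filter asks for, so they entered the test through batches in which they were higher, and the count is a description. The median log2 difference of the 10, with Ngp and Elane at their bounds, was 5.62, beside 0.0044 over all genes tested. Without WT4 the same number, 8, passed, but Mmp8 moved from a log2 difference of 4.22 to 2.08, Lcn2 from 5.71 to 3.91 and Mpo from 5.30 to 3.66.

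Batch 3 against batch 1 gave 9 members higher, where 23.1% of genes were called higher, and 1 lower, Mmp9, where 22.4% were called lower. Here too 7 members, Ltf among them, had no batch 1 library above the filter's level. The count of members higher and the p-values of those 7 are thus a description. S100a9 reached that level in 1 batch 1 library, WT2 (1.55 CPM), and in all 4 of batch 2 and of batch 3. Its p-value is a description too. Ltf was higher by 8.71 ± 0.29 (SE) on the log2 scale (edgeR adjusted p = 1.4e-10), S100a9 by 8.73 ± 0.53 (adjusted p = 1.1e-06) and Mmp8 by 3.03 ± 0.87 (adjusted p = 0.0194). Mmp9 fell by 1.79 ± 0.37 (adjusted p = 0.0016). The median of the 10, with Ngp and Elane at their bounds, was 7.87 beside 0.0089 over all genes. Mmp8 lost its call when WT3 was left out (adjusted p = 0.0528) or the genotype term was dropped (adjusted p = 0.0677).

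Batches 3 and 2 offer the comparison in which most members had counts on both sides. Here 7 members rose, where 24.3% of genes were called higher, and Mmp9 fell, where 24.4% were called lower. Mpo and Elane reached the filter's level in 1 batch 2 library, WT4, and in all 4 of batch 3. They entered the test mainly through batch 3, where they were higher. Their values and p-values here, and their part in the count of 7, are thus a description. Elane rose by 4.08 ± 0.71 (SE) on the log2 scale (edgeR adjusted p = 0.0013), Mpo by 2.93 ± 0.47 (adjusted p = 0.00033), S100a9 by 2.35 ± 0.33, Camp by 2.30 ± 0.31, Ngp by 2.17 ± 0.27, S100a8 by 2.17 ± 0.34 and Ltf by 2.08 ± 0.16. Mmp9 fell by 2.42 ± 0.37 (adjusted p = 0.00020). Lcn2, at -0.37 ± 0.65 (adjusted p = 0.667), and Mmp8, at -1.19 ± 0.71 (adjusted p = 0.198), did not pass. Without WT4, Lcn2 turned to 0.95 (adjusted p = 0.206) and Mmp8 to 0.43 (adjusted p = 0.315), Mmp9 moved to -1.63 with its call kept (adjusted p = 0.00101), Mpo moved to 4.29, S100a8 to 2.83 and Elane had no count left in batch 2. The 3 contrasts between batches share cultures and are given side by side only.

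Counts that need no model, taken from the same libraries, gave the same numbers and are not separate support. With 7 members below the filter's level in every batch 1 library, the counts against batch 1 are again a description. The same holds for Mpo and Elane in the count of batch 3 against batch 2. In total RNA, all 4 libraries of batch 2 lay above all 4 of batch 1 for 8 members (16.7% of genes tested), batch 3 lay above batch 1 for 9 and below it for Mmp9 (23.4% and 23.5% of genes), and batch 3 lay above batch 2 for 7 and below it for Mmp9 (20.6% and 20.5%).

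The make-up of the members' counts also differed between batches. Tertiary Mmp9 held 48.2% to 64.0% of the 10 genes' total RNA counts in batch 1, 4.03% to 8.79% in batch 2 and 0.283% to 0.607% in batch 3. Secondary genes held 29.0% to 45.5%, 39.8% to 65.6% and 25.8% to 32.2%, and primary genes 0% to 1.45%, 0.876% to 1.62% and 3.37% to 6.61%. The cytosolic pair held 2.69% to 16.4%, 27.7% to 55.3% and 60.9% to 70.5%. Together the 10 genes took 0.00114% to 0.00163% of all gene counts in batch 1 and 0.0447% to 0.0599% in batch 3, so they stayed rare in every culture.

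**Figure D2:**
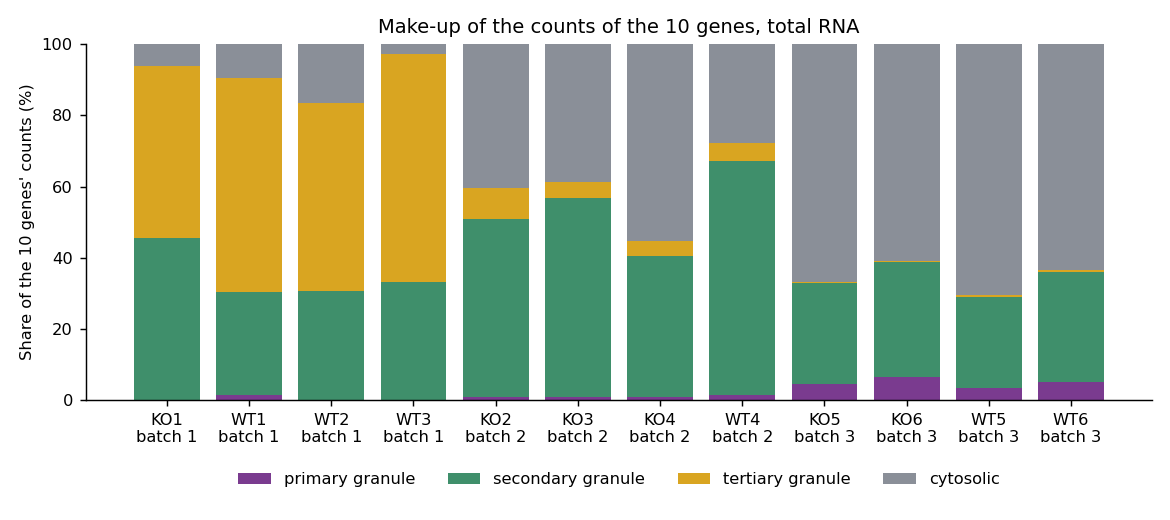
Bars give the percentage of the 10 genes' total RNA counts that fell in each class, 1 bar per culture, ordered by batch. The tertiary share runs from 48.2% to 64.0% in batch 1 to 0.283% to 0.607% in batch 3, and the cytosolic share is 60.9% to 70.5% in batch 3.

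Over the 12 total RNA libraries, which share 3 batches, 7 members other than Mmp8, Mmp9 and Lcn2 moved together, with Pearson r of log2 CPM between 0.782 and 0.996 over 21 pairs; the closest pair was Ngp and Ltf (r = 0.996). Mmp8 was closest to Lcn2 (r = 0.920), and Mmp9 had r from -0.665 to 0.033 with the other 9. Among 11313 other genes, the closest to S100a9 was Chi3l3 (r = 0.997), a chitinase-like protein of specific granules and alternatively activated macrophages, and then Tspan5, Cdk2, Ly6c2 and Fads2 (r = 0.970 to 0.981). The closest to Mpo were 1100001G20Rik (r = 0.988), Itga1, Prtn3 (r = 0.978), Mvk and Sqle, and Prtn3 is proteinase 3, another primary granule protease. The closest to Mmp8 were Ugt1a7c (r = 0.976), Surf4, F13a1, Slc6a12 and Xbp1, and to Mmp9 Mmp19 (r = 0.949), Epha4, Chpf, Iqgap2 and Trpm2. These r values describe the libraries and mainly separate the batches.

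Other genes of granulocytes gave values beside these steps in total RNA of batch 3 against batch 2. Of 8 granulocyte precursor markers, 6 were tested and all 6 rose, where 24.3% of genes were called higher. Among them were Prtn3 by 3.40 ± 0.43, Ctsg (cathepsin G) by 4.46 ± 0.56, Fcnb (ficolin B) by 2.18 ± 0.41 and Cd63 by 0.59 ± 0.10 (SE, log2 scale). Ctsg, Fcnb and Ms4a3 stayed below the filter's level of 1.45 CPM in batches 1 and 2. They entered the test through batch 3, where they were higher, so the count is a description. Prtn3 stood at 0 to 0.085 CPM in batch 1, 0.138 to 2.31 in batch 2 and 8.63 to 12.5 in batch 3. Of 15 mature neutrophil markers, 14 were counted and 5 tested: G0s2 and Trem3 rose, Csf3r (the G-CSF receptor) fell by 2.31 ± 0.17 and Padi4 by 0.80 ± 0.24, and Cxcr2 did not pass. G0s2 and Trem3 also stayed below the filter's level in batches 1 and 2. Retnlg, a marker of mature neutrophils, had 0, 6 and 3 counts over batches 1, 2 and 3. The summed mature markers were at 54.3 to 64.7, 92.8 to 150.5 and 32.5 to 44.5 CPM in batches 1, 2 and 3. Most of that sum was Csf3r, with means of 44.0, 87.7 and 18.4 CPM, and Padi4, with means of 11.1, 17.9 and 10.4 CPM. The sum therefore mainly follows these genes.

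Further granule genes split, where 24.3% of genes tested were called higher and 24.4% lower. Among 5 tested of 8 other primary granule genes, Serpinb1a, Prtn3 and Ctsg rose from batch 2 to batch 3 while Ctsc and Srgn, which macrophages also make, fell. Among 7 tested of 13 other secondary granule symbols, Chi3l3 (2.39 ± 0.27), Chi3l1 and AA467197 rose and none fell. Ctsg and Chi3l1 reached the filter's level in batch 3 alone. Of 5 tested of 8 tertiary granule and secretory vesicle genes none rose, and Slc11a1, Fpr1 and Fpr2 fell. Of 8 granulocyte transcription factors, 5 were tested: Cebpe, which acts at the myelocyte stage, rose by 1.09 ± 0.35 and Cebpa, Cebpb, Cebpd and Runx1 fell.

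Most macrophage markers were lowest in batch 3 in total RNA. Cd68 was at 231 to 269 CPM in batch 1 and 282 to 310 CPM in batch 3, and the Lyz2 ranges of these batches overlapped. All 10 tested macrophage markers fell in total RNA from batch 2 to batch 3, where 24.4% of genes were called lower (median log2 difference -1.53), among them Mertk by 3.00 ± 0.19, Fcgr1 by 2.64 ± 0.17, Csf1r (the M-CSF receptor) by 1.84 ± 0.13 and Emr1 (F4/80) by 1.94 ± 0.21, and 8 of 10 fell from batch 1 to batch 3, where 22.4% were called lower. In footprints of batch 3 against batch 2, 8 of these 10 fell and Cd68 rose, where 920 of 7977 genes were called lower and 802 higher. From batch 1 to batch 2 in total RNA, in which 8 members rose, 4 macrophage markers rose (Cd68, Fcgr1, Csf1r and Lyz2). In the same step 1 fell (Mrc1) and the median of the 10 markers was 0.42. Of the 11323 genes tested, 1415 were called higher in this step and 1204 lower. Of the inflammatory monocyte markers, Ly6c2, Ly6c1, Plac8, Vcan, F13a1 and Ccr2 rose in that step, where 12.5% of genes were called higher. From batch 2 to batch 3, Ly6c2 and Plac8 rose, Ly6c1 and Ccr2 fell, and Vcan and F13a1 did not pass. Kit, a progenitor and mast cell receptor, was at 6.67 to 12.5, 1.49 to 3.24 and 39.7 to 67.4 CPM in batches 1, 2 and 3. The part of these genes in the members' steps was not tested, and in bulk RNA fewer or more cells of a type and a change of RNA per cell cannot be told apart.

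Footprints showed the members' mRNAs on ribosomes in the same batches. In the 4 libraries of batch 1, Mpo, Elane, Ngp, Camp and Ltf had no footprint count. Ngp footprints stood at 24.8, 19.6, 37.9 and 41.1 CPM in KO2, KO3, KO4 and WT4 and at 174, 188, 95.1 and 384 CPM in KO5, KO6, WT5 and WT6. The highest of these values, in WT6, rests on 14 counts. Mpo stood at 2.26, 2.06, 5.21 and 13.2 CPM in KO2, KO3, KO4 and WT4 and at 76.1, 94.0, 36.2 and 54.8 CPM in KO5, KO6, WT5 and WT6. Both genes were higher in each library of batch 3 than in each of batch 2.

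Elane footprints stood at 0.846, 0, 0.823 and 3.52 CPM in batch 2 (KO2, KO3, KO4 and WT4) and at 35.8, 41.8, 40.8 and 27.4 CPM in batch 3 (KO5, KO6, WT5 and WT6, 1 to 9 counts each). Ltf stood at 16.4, 18.6, 41.4 and 39.6 CPM and then at 130, 41.8, 127 and 110 CPM in the same cultures. For both, batch 3 lay above batch 2, for Ltf by a narrow margin in KO6, whose value rests on 4 counts. Camp had 5 to 10 counts a library in batch 2 (1.92 to 5.15 CPM) and 1 or 2 counts a library in batch 3 (4.47 to 54.8 CPM), and did not reach the filter.

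The cytosolic pair stepped again. S100a8 footprints stood at 0, 1.53, 3.23 and 2.08 CPM in KO1, WT1, WT2 and WT3, at 27.6, 28.9, 37.3 and 110.1 CPM in KO2, KO3, KO4 and WT4, and at 134, 167, 158 and 219 CPM in KO5, KO6, WT5 and WT6. S100a9 had 1 footprint count in batch 1 (KO1), stood at 44.6, 56.7, 92.7 and 154 CPM in KO2, KO3, KO4 and WT4, and at 201, 209, 263 and 192 CPM in KO5, KO6, WT5 and WT6. Batches did not overlap for either.

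WT4 was also highest for Lcn2 and Mmp8 in footprints. Lcn2 had 2 counts in batch 1 (WT1), stood at 12.7, 38.1, 14.3 and 129 CPM in KO2, KO3, KO4 and WT4, and at 35.8, 10.4, 81.5 and 0 CPM in KO5, KO6, WT5 and WT6. Mmp8 stood at 11.4, 6.14, 3.23 and 3.11 CPM in KO1, WT1, WT2 and WT3, at 20.0, 33.0, 16.2 and 274 CPM in KO2, KO3, KO4 and WT4, and at 17.9, 31.3, 18.1 and 0 CPM in KO5, KO6, WT5 and WT6. Mmp9 stood at 9.77, 13.8, 38.8 and 12.5 CPM, 9.87, 13.4, 9.88 and 38.2 CPM, and 17.9, 10.4, 13.6 and 0 CPM in the same cultures. The 0 of WT6 in these 3 genes allows up to 101.5 CPM, and Mmp9 footprints overlapped between all batches.

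**Figure D3:**
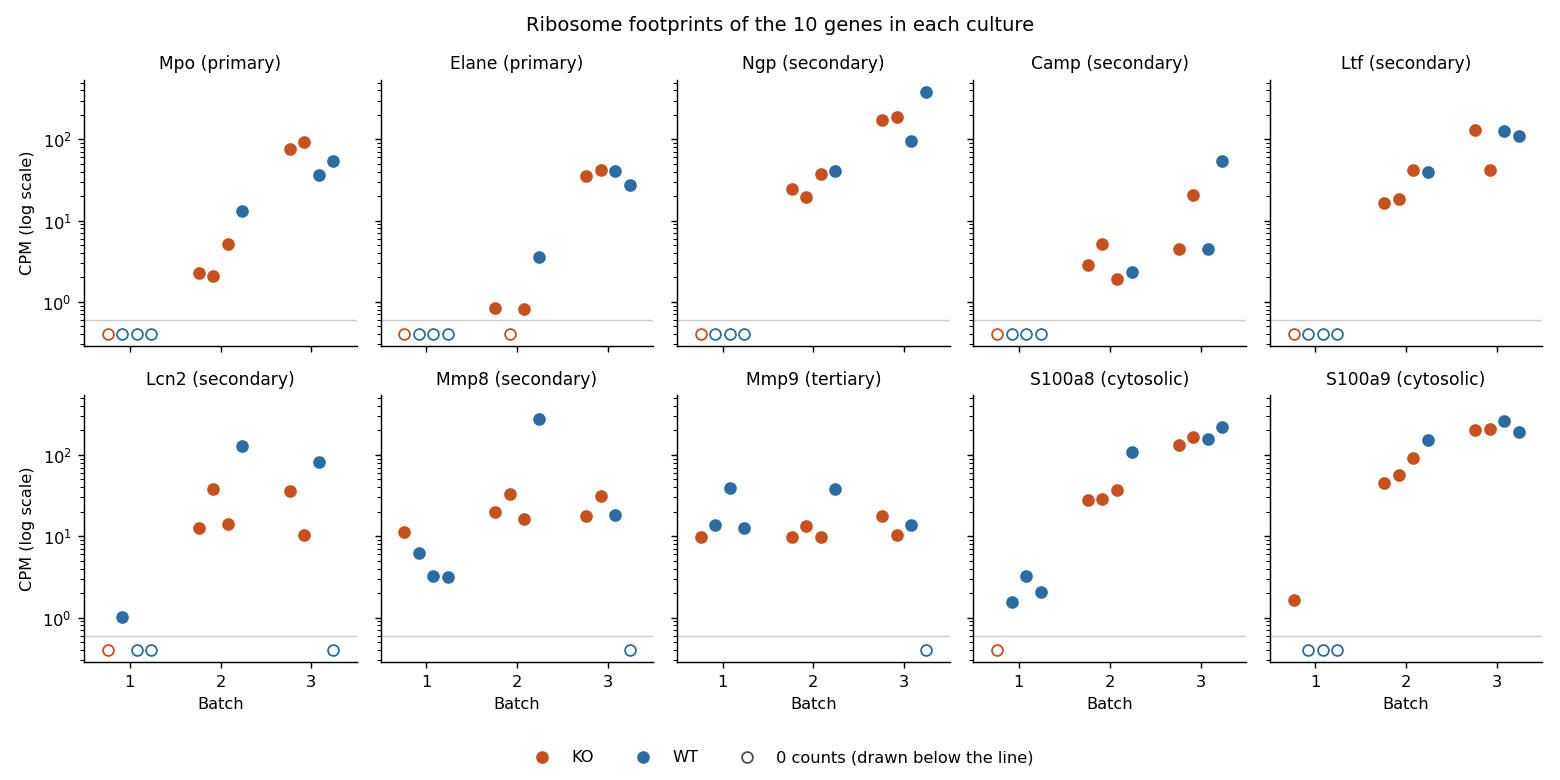
Footprints of each member in CPM on a log axis, by batch, with 1 point per culture coloured by genotype; open points below the grey line had 0 counts. Mpo, Elane, Ngp, Camp and Ltf have no count in batch 1, and WT4 stands at 274 CPM for Mmp8.

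In the footprint test 9 members passed the filter, Camp excepted. Batch 2 gave 7 of 9 higher than batch 1 (8.02% of 7977 genes were called higher), not Elane (edgeR adjusted p = 0.0524) or Mmp9 (adjusted p = 0.0785). Batch 3 gave 7 of 9 higher than batch 1 (8.93% of genes), not Mmp8 or Mmp9. Batch 3 gave 6 of 9 higher than batch 2 (10.1% of genes): Elane by 4.45 ± 0.67, Mpo by 3.32 ± 0.55, Ngp by 2.37 ± 0.34, Ltf by 1.78 ± 0.40, S100a8 by 1.51 ± 0.27 and S100a9 by 1.24 ± 0.27 (SE, log2 scale). Of the 10 members, 9 had no batch 1 footprint library above the filter's level, so the counts against batch 1 are a description. Mpo and Elane had 0 batch 2 footprint libraries at that level too, so their values against batch 2 are also a description. Without the genotype term Lcn2 lost its call between batches 3 and 1 (adjusted p = 0.0883) and Mmp8 between batches 2 and 1 (adjusted p = 0.0752). Without WT4, Mmp8 (adjusted p = 0.273) and Mpo (adjusted p = 0.0679) lost their call between batches 2 and 1. Between batches 3 and 2, Ltf lost its call without KO5 (adjusted p = 0.0966) or WT5 (adjusted p = 0.0724), and S100a9 without KO5 (adjusted p = 0.0531). Without a model, batch 2 lay wholly above batch 1 in footprints for 8 members (11.5% of genes), batch 3 above batch 1 for 7 (7.72%) and batch 3 above batch 2 for 6 (7.99%).

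Set against total RNA in 1 model of the 24 libraries, footprints were higher for 8 of 10 members, where 32.2% of 10963 genes were called higher. Ngp was higher by 2.29 ± 0.22 (SE) on the log2 scale (edgeR adjusted p = 2.4e-09), Elane by 2.20 ± 0.48, Mpo by 1.78 ± 0.36, Lcn2 by 1.57 ± 0.48, Mmp9 by 1.13 ± 0.24, Ltf by 0.99 ± 0.18, S100a9 by 0.87 ± 0.27 and S100a8 by 0.78 ± 0.24. Camp, at 0.62 ± 0.33 (adjusted p = 0.0925), and Mmp8, at 0.34 ± 0.50 (adjusted p = 0.566), did not pass. The median of the 10 was 1.06 beside -0.068 over all genes tested. Footprints were counted in coding sequence while the region counted for total RNA was not stated, so the differences are not compared between genes. With DESeq2, Lcn2 (adjusted p = 0.0688) and S100a9 (adjusted p = 0.122) did not pass.

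**Figure D4:**
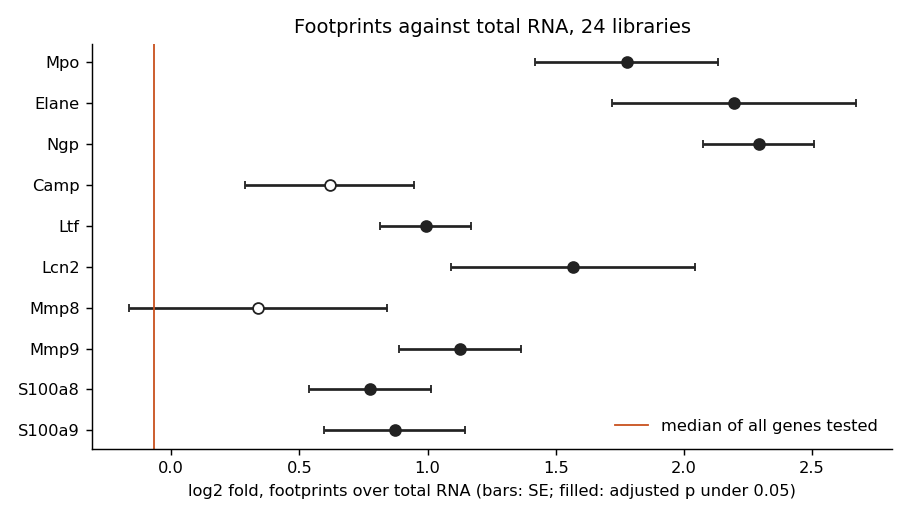
Points give the log2 fold of footprints over total RNA for each member and bars its SE, and filled points have an edgeR adjusted p under 0.05. The vertical line is the median of all genes tested (-0.068), and 8 points are filled, all but Camp and Mmp8.

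Single cultures gave ratios of footprint CPM to total RNA CPM where both libraries had 10 or more counts. Ngp had ratios of 3.64 to 4.60 in the 4 cultures of batch 2 and 3.93 to 8.34 in the 4 of batch 3, and Ltf 1.55 to 2.25 in batch 2 and 1.91 to 2.02 in 2 cultures of batch 3. S100a9 had ratios of 2.15 to 2.78 in batch 2 and 0.975 to 1.34 in 3 cultures of batch 3, and S100a8 1.62 to 2.47 and 1.02 to 1.66. The S100a9 ranges did not overlap, but no member passed the test of molecule by batch (11.7% of 11118 genes did), in which S100a9 had the smallest unadjusted p of the 10 (0.0608; edgeR adjusted p = 0.214).

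Between genotypes, none of the 10 members passed in total RNA (0.0177% of 11323 genes did), with DESeq2 as with edgeR. All 10 fitted differences of KO over WT were below 0, from -0.23 (Ngp) to -1.64 (Mmp8), with a median of -0.64 beside -0.0022 over all genes, and 3 had an unadjusted edgeR p under 0.05: Mmp9 (-1.19 ± 0.29), S100a8 (-0.98 ± 0.33) and Mmp8 (-1.64 ± 0.65), each with an adjusted p of 0.862. Without WT4 the 10 values ran from -0.49 (Mmp9) to 0.16 (Mpo).

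In footprints, 3 of the 9 members tested passed as lower in KO, where 0.301% of 7977 genes were called lower: Lcn2 by -2.57 ± 0.39 (SE, log2 scale; edgeR adjusted p = 0.0067), Mmp9 by -1.50 ± 0.31 (adjusted p = 0.0154) and S100a8 by -1.30 ± 0.23 (adjusted p = 0.0055). Mmp8 had the largest difference, -3.06 ± 0.62, and did not pass (adjusted p = 0.142). None of the 3 calls held without WT4, where Lcn2 stood at -1.29, Mmp9 at -0.42, S100a8 at -0.29 and Mmp8 at 0.98, and none was made by DESeq2. Lcn2 also lost its call without WT1 (adjusted p = 0.0829), and Mmp9 without KO2 (0.146), without KO4 (0.176) or without KO6 and WT6 together (0.0522).

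**Figure D5:**
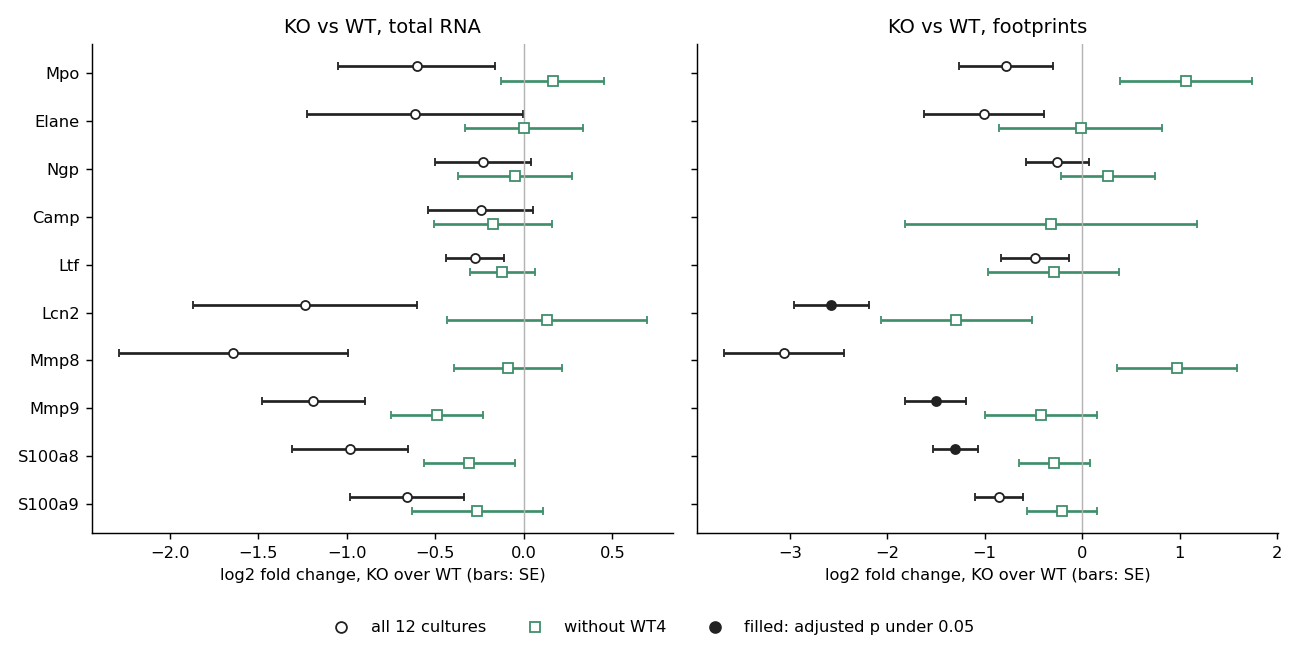
Log2 fold change of KO over WT for each member in total RNA and footprints, with SE as bars, over all 12 cultures (circles) and without WT4 (squares); filled points have an edgeR adjusted p under 0.05. The 3 filled points are Lcn2, Mmp9 and S100a8 in footprints, and no square is filled.

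WT4 was the only WT culture of batch 2. Its total RNA level over the mean of KO2, KO3 and KO4 was 12.8 for Mmp8, 7.04 for Lcn2, 6.50 for Mpo, 4.58 for Mmp9, 3.88 for S100a8, 2.36 for S100a9, 1.48 for Ngp, 1.45 for Ltf and 1.32 for Camp. The same ratios in footprints were 11.9, 5.94, 4.16, 3.46, 3.52, 2.38, 1.50, 1.56 and 0.712. Elane had 10 total RNA counts in WT4 and 0 in the 3 KO cultures, and its footprint ratio was 6.33, from 12 counts against 6. Among the secondary granule genes, Ngp, Ltf and Camp in WT4 thus lay near the KO cultures in both kinds of library, and Mmp8 and Lcn2 lay far above them. The summed macrophage markers were at 49323 CPM in WT4 against 28008 to 32258 in KO2, KO3 and KO4, and the summed mature neutrophil markers at 150.5 against 92.8 to 102.1. Csf3r made most of the latter sum, at 117.8 CPM in WT4 and 71.8 to 82.2 CPM in KO2, KO3 and KO4. The part of these markers in the result was not tested.

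Within batches, KO minus WT in mean log2 CPM of total RNA was 0.44, -3.77 and -0.33 for Mmp8 in batches 1, 2 and 3, 1.43, -2.98 and -0.017 for Lcn2, -0.49, -2 and -0.29 for S100a8, and -0.24, -2.15 and -0.72 for Mmp9. For Ngp it was 0, -0.59 and -0.0018, for Ltf -0.047, -0.57 and -0.12, and for Mpo -0.24, -2.41 and 0.22. The difference was most negative in batch 2 for each of these 7 genes. A test of genotype by batch was passed by Mmp8 alone of the members, in total RNA (edgeR adjusted p = 0.0205, where 0.947% of 11823 genes passed) and in footprints (adjusted p = 4.79e-06, where 1.91% of 9081 genes passed).

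Translational efficiency, footprints relative to total RNA, did not pass between genotypes for any of the 10 members (0.00899% of 11118 genes did), with DESeq2 as with edgeR. No member had an unadjusted edgeR p under 0.05, and the smallest were 0.169 for Mmp8 (-1.49 ± 1.04) and 0.183 for Lcn2 (-1.29 ± 0.93). The authors' deposited results do not state which comparison was tested, so they are not read as a result on translational efficiency. In their table over all genes, the 10 members had p-values from 0.364 to 0.949 and adjusted p-values of 1. The 5 members in their table of a top 25 percent of genes had adjusted p-values from 0.842 to 0.992.

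Among granule genes outside the 10, only Cd177, a neutrophil surface glycoprotein of the secondary granule list, passed between genotypes in the lists tested. It passed in footprints, as lower in KO (-2.21 ± 0.49, edgeR adjusted p = 0.0299), where 0.301% of 7977 genes were called lower. Cd177 had no footprint count in batch 1. Of all genes tested in footprints, 2 were called without WT4 and 3 with DESeq2. Whether Cd177 was among them is not given here. Cd177 total RNA stood at 1.21 to 1.66 CPM in KO2, KO3 and KO4 and at 7.10 CPM in WT4.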

How the data were processed

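Total RNA and footprints of 12 cultures were analysed as 24 count tables. The authors deposited whole-number counts per gene symbol, not normalized; file names say that footprints were counted in coding sequence. For total RNA the region is not given in the sources used here, nor are the strand setting and the treatment of multiply aligned reads. Per the submitters' processing notes, which give no role or order, the build was mm10 and the tools included DESeq2, DESeq, HTSeq, TopHat2 2.1.0, Bowtie 1.1.2, Cufflinks 2.2.1 and Trim Galore. Library sizes and tests left out the 5 summary lines of a file: not uniquely aligned reads took 27.8% to 51.2% in total RNA and 45.6% to 80.2% in footprints, and reads outside features 4.33% to 19.2% and 3.97% to 9.47%. Per the file headers, 2 further deposited tables of results hold p-values, adjusted p-values, a test score, a log2 fold change and a mean normalized signal. Neither the comparison tested nor the direction of the fold is given there.

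The count test was edgeR 4.0.16 (R 4.3.3) after TMM scaling, with filterByExpr on the design with a minimum count of 10, the robust quasi-likelihood F-test, and Benjamini-Hochberg adjustment over all genes tested, at 0.05. Models held genotype and batch, fitted to total RNA and footprints separately; translational efficiency was the genotype by molecule term over 24 libraries, with the 2 libraries of a culture taken as independent. Log2 CPM used a prior count of 2, intervals are at 95%, and a count of 0 was read against 3 counts. The scripts were tested on simulated data. Alternatives were DESeq2 1.42.0, RLE scaling, no filter, models blocked on replicate (for molecule terms, on culture) or lacking batch or genotype, and fits omitting 1 culture at a time, KO6 with WT6, or batch 2; a filter by genotype and molecule groups was chosen after seeing the data. No 2 libraries of a group agreed within sampling noise. The members, gene lists and tests were chosen with earlier results of these data known. Of each list, up to 4 genes past the threshold with the smallest p are named, and for the member of each class with the highest mean CPM the 5 genes with the highest r; other genes named were chosen after their values were seen. Promoter sequences are from RefSeq on GRCm38.p6, which had a window for 9 of the 10 members. 1 listed marker gene is not reported here.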

Additional observations from a re-analysis of the deposited data

Results flagged for a closer look

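Groups of libraries within a genotype or a batch were looked at for 1 library far from the others. Each of the 80 groups had 10 or more counts of a member in at least 1 library. The gap to the next library was set against the range of the group on log2 CPM, and 9 stood out. For independent libraries of 1 spread, chance marks about 1 group in 20. Genotype groups pool batches that differ and members move together, so the 9 are not read against that rate. Of the 9, 3 were WT4 among the total RNA libraries of batch 2: Mmp9 at 23.6 CPM beside 4.65 to 5.95, Mpo at 5.95 CPM beside 0.692 to 1.04, and Elane at 1.65 CPM beside 0 in each of the others. Mmp8 in WT4, at 226.8 CPM beside 11.1 to 28.3, was not among the 9 on this log2 scale. KO1, the only KO culture of batch 1, stood below the other KO cultures 4 times. Its footprints of S100a8 were at 0 CPM beside 27.6 to 167, those of S100a9 at 1.63 CPM (1 count) beside 44.6 to 209, and those of Lcn2 at 0 CPM beside 10.4 to 38.1, and its total RNA of Ltf was at 0.132 CPM beside 10.4 to 68.1.

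The remaining 2 come from shallow footprint libraries. Ltf in KO6 was at 41.8 CPM (4 counts) beside 110 to 130 in the rest of batch 3, and Mmp9 in WT6 was at 0 CPM, which allows up to 101.5, beside 12.5 to 38.8 in the other WT libraries.

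The difference between genotypes itself differed between batches for Mmp8, the neutrophil collagenase, with an edgeR adjusted p of 0.0205 in total RNA and 4.79e-06 in footprints. In total RNA, KO minus WT in mean log2 CPM was 0.44, -3.77 and -0.33 in batches 1, 2 and 3, and in footprints it was 1.23, -3.55 and 2.22, where WT6 of batch 3 had 0 counts. WT4 is the single WT culture of batch 2. Batch 1 has 1 KO culture.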

How the results depend on the processing

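The number of members called between KO and WT in footprints, 3, became 0 under DESeq2, without the batch term, without batch 2 and with the replicate block, and ran from 0 to 4 when 1 culture was left out, with 0 without WT4. Batch 3 against batch 1 in footprints went from 7 to 4 under the filter by genotype and molecule groups, chosen after seeing the data, and translational efficiency between genotypes from 0 to 2 with no filter. The other counts of members stayed within 1.5 times of the values reported. Of 1758 values of single members under an alternative, 1635 kept their direction and side of the threshold, 26 no longer passed, 17 newly passed and 80 changed sign; the cause was not tested. DESeq2's test, no low-count filter and the block on replicate numbers left 3, 159 and 1 genes called between KO and WT in footprints, against 26. The other settings gave 6 with the filter by groups, 16 without KO6 and WT6, 1 without the batch term, 2 without batch 2, and 2 (WT4) to 313 (KO1) when 1 culture was left out, with 48 without WT1, 8 without KO2, 5 without KO4, 41 without KO5 and 44 without WT5. In total RNA 2 genes became 7 with DESeq2, 10 with no filter, 8 without batch 2, 1 without KO6 and WT6 or with the block, 4 without KO1 and 1 without KO5, and for translational efficiency 1 became 26 with no filter. Batch 2 against batch 1 went from 2619 to 1362 genes in total RNA and from 1206 to 600 in footprints without WT4, and without KO5 batch 3 in footprints went from 1576 to 1026 genes against batch 1 and from 1722 to 1019 against batch 2.

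Signs changed as follows, on the log2 scale. For KO over WT in total RNA, Camp was 0.12, Ltf 0.11 and Ngp 0.17 without the batch term, and Elane 0.00, Lcn2 0.12 and Mpo 0.16 without batch 2. With the replicate block the values were Camp 0.50, Lcn2 0.46, Ltf 0.92, Mmp8 0.03, Mpo 0.07, Ngp 0.86, S100a8 0.36 and S100a9 0.79. For KO over WT in footprints, Ltf was 0.35, Ngp 0.74 and S100a9 0.07 without the batch term, Mpo 1.02 and Ngp 0.15 without batch 2, and Ltf 0.61, Mpo 0.12, Ngp 0.66, S100a8 0.01 and S100a9 0.67 with the replicate block. Mmp9 footprints in batch 3 over batch 1 were -0.17 without the genotype term. For translational efficiency, DESeq2 gave Elane 0.88, Mmp8 0.35, Mpo 0.60 and S100a9 0.07, the fit without KO6 and WT6 gave 0.08 for Mpo and Ngp, and the fit without the batch term gave Ltf 0.22, Mmp9 0.07, Mpo 0.51, Ngp 0.53 and S100a9 0.24. Without batch 2 it was -0.16 for Camp, 1.07 for Mmp8, 0.05 for Mmp9, 0.90 for Mpo, 0.32 for Ngp, 0.02 for S100a8 and 0.05 for S100a9, and with each culture as a block over its 2 libraries, the replicate block of this model, 0.34 for Elane, 0.24 for Mmp8, 0.16 for Mmp9, 0.68 for Mpo, 0.06 for Ngp, 0.12 for S100a8 and 0.01 for S100a9.

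When 1 culture was left out, signs changed in these ranges. In total RNA, KO over WT ran from -1.12 to 0.00 for Elane, -1.65 to 0.13 for Lcn2 and -1.09 to 0.16 for Mpo, batch 2 over batch 1 from -0.00 to 5.39 for Elane and -0.28 to 1.18 for Mmp9, and batch 3 over batch 2 from -0.72 to 0.95 for Lcn2 and -1.57 to 0.43 for Mmp8. In footprints, KO over WT ran from -3.45 to 0.98 for Mmp8, -1.32 to 1.06 for Mpo and -0.62 to 0.26 for Ngp. Mmp9 footprints ran from -0.19 to 1.13 in batch 2 over batch 1, from -0.39 to 0.90 in batch 3 over batch 1 and from -1.33 to 0.18 in batch 3 over batch 2, where Lcn2 ran from -0.94 to 0.57 and Mmp8 from -3.07 to 0.21. Translational efficiency ran from -0.16 to 0.96 for Camp, -1.71 to 1.06 for Mmp8, -0.40 to 0.13 for Mmp9, -0.39 to 0.91 for Mpo, -0.17 to 0.32 for Ngp, -0.39 to 0.02 for S100a8 and -0.30 to 0.06 for S100a9. Each of these 22 results changed sign without WT4.

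KO and WT cultures of the same number correlated in their deviations by 0.039 to 0.799 in total RNA and 0.069 to 0.315 in footprints. The value was not over 0.1 in every pair, and the number was not taken as a pairing in the main models. The cultures numbered 1, 4, 5 and 6 share a batch with their partner, and those numbered 2 and 3 do not. In total RNA the former had r of 0.561, 0.317, 0.799 and 0.775, the latter 0.401 and 0.039. The 2 libraries of a culture, tied by their titles, correlated by 0.025 to 0.424, and the block on culture left footprints against total RNA at 8 members and translational efficiency at 0. Depth limits the footprints: 3 counts reach 101.5 CPM in the shallowest library.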
